A study of Homo sapiens with 8 samples.

Results

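Loci within the major histone gene cluster of human chromosome 6 are described here, as measured in RNA of 2 human liver cancer cell lines treated with the BET bromodomain inhibitor JQ1. Loci were chosen by position and by whether FPKM values are given: each had values in the deposited tables of both lines and lay on chromosome 6 between 25.7 and 29 Mb (GRCh38). Of 80 rows in this window 7 held dashes in place of values, which left 73 loci of 15469 with values in all. Of the 73 loci, 30 carry an Ensembl ID and 43 an LXLOC name, which is an identifier of the deposited tables with no gene name in the annotation used. On the plus strand lie 37 of them and on the minus strand 36. The window was proposed with earlier results of these data in view, so the shares that rose or fell in it are a description. Within the window no size of any value entered the choice of loci. At the low end of the window the nearest row inside is LINC02980 (2.89 and 2.95 FPKM in HepG2 with JQ1, 4.17 and 4.42 with vehicle), and the nearest row outside is ENSG00000286933, at no more than 0.04 FPKM in any library. At the high end the nearest row inside is AL662791.1, at no more than 0.61 FPKM, and the nearest outside is OR2W1-AS1, at no more than 0.07 FPKM.

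HepG2 and LM3 are established human liver cancer lines. The labels give 4 groups of 2 libraries each, HepG2 with JQ1, HepG2 with vehicle (DMSO), LM3 with JQ1 and LM3 with vehicle, 8 libraries in all, with no dose or time. JQ1 is a small molecule that occupies the acetyl-lysine pockets of BET proteins and so releases them from chromatin, and the comparison with DMSO asks which loci respond. Levels are in FPKM, fragments scaled to the length of the locus and to the size of the library, a scale on which loci of different length can be set side by side.

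The cluster holds genes for all 5 histone classes. In background terms, replication-dependent histone genes are mostly without introns, are transcribed mainly in S phase, and yield mRNAs that end not in a poly(A) tail but just past a short stem-loop, where a machinery containing SLBP and the U7 snRNP cuts the transcript. Many H2B promoters carry an octamer bound by OCT1. The cluster is also rich in tRNA genes, which RNA polymerase III transcribes. In the annotation (GENCODE 29) the window holds 55 coding histone genes, none of which has values in the tables, so the histone mRNAs themselves were not analysed here.

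The promoters of the 2 histone genes past which runs of loci rose with JQ1 are shown first. Each covers 250 bases before to 50 bases after the gene's start (RefSeq, GRCh38.p14), with every match to the octamer ATTTGCAT, to CCAAT and to TATAAA on either strand in capitals. In H2BC11 the matches to TATAAA on the 2 strands overlap at 1 place. H2BC11 (HIST1H2BJ) is at chr6:27132746-27133045 on the minus strand and H2BC17 (HIST1H2BO) at chr6:27893175-27893474 on the plus strand. HCG11, the noncoding gene that fell with JQ1 in both lines, is at chr6:26521456-26521755 on the plus strand and holds none of the 3 motifs in this window.
H2BC11: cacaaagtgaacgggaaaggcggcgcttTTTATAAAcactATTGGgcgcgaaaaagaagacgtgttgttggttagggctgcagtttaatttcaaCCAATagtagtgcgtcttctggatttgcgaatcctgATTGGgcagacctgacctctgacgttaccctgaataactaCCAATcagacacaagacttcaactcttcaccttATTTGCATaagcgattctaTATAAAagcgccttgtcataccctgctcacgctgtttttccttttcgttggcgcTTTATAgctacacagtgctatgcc
H2BC17: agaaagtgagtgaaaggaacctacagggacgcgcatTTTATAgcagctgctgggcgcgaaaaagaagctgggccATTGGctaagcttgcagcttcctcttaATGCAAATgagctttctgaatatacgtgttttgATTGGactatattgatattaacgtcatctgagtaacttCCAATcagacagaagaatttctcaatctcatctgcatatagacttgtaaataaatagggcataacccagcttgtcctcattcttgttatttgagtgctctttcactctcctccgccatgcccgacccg
HCG11: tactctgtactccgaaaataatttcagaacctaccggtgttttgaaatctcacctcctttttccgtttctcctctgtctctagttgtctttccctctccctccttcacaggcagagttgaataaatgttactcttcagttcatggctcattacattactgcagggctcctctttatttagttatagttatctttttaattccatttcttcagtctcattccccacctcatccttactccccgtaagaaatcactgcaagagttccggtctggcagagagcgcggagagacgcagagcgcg
In H2BC11 the octamer begins 47 bases before the start and a TATAAA 28 bases before it. In H2BC17 the octamer lies on the other strand and begins 149 bases before the start. Over 35116 RefSeq promoter windows of the same length, 1.77% held the octamer, 34.6% CCAAT and 11.5% TATAAA. Among 55 windows of histone genes, 23 (41.8%) held the octamer, 47 (85.5%) CCAAT and 36 (65.5%) TATAAA. The octamer stood in 13 of 18 windows of H2B genes. These 18 outnumber the coding H2B genes of the cluster, so they are not 1 window for each of them. These are matches of letters, not mapped binding sites.

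Histone stem-loops and a polyadenylation signal are also shown, because loci that rose lie past histone genes and AL021807.1 is one of them (GENCODE 29, GRCh38). The histone stem-loops of H2AC6 (chr6:26124669-26124684, plus strand) and H3C8 (chr6:26270923-26270938, minus strand) have the 2 arms of the stem in capitals. Both lie inside longer annotated transcripts, at base 525 of 1654 in H2AC6 and base 878 of 2411 in H3C8. Distances past these genes run from their annotated ends, not from the stem-loops. No stem-loop of H2BC11 or H2BC17 is shown, because their annotated transcripts held no match to the pattern searched. The sequence past those transcripts was not available here. The last 60 bases of AL021807.1 (chr6:27122657-27122716, minus strand), which starts past the end of H2BC11, have the polyadenylation hexamer AATAAA in capitals.
H2AC6: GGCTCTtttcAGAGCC
H3C8: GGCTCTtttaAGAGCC
AL021807.1: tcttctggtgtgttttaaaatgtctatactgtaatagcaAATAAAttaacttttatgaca

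Noncoding loci that lie past the H2B genes H2BC11 and H2BC17, on the strand of the gene, rose with JQ1 in both lines, with means between 3.22-fold and 7.98-fold higher in HepG2. Loci antisense over histone genes and most short loci over tRNA genes were not called, and the noncoding gene HCG11 fell in both lines. With JQ1, 18 of the 54 loci tested in HepG2 rose (33.3%), where 10.8% of all 5906 loci tested did, and 3 fell, where 14.2% of all did. In LM3, 13 of 38 rose (34.2%), where 7.92% of all 6474 did, and 3 fell, where 15.4% of all did. In either direction the background was 25.1% in HepG2 and 23.3% in LM3. Because the window was proposed with earlier results of these data in view, these shares describe it and are not independent support. All 13 loci that rose in LM3 also rose in HepG2, and HCG11 fell in both lines. The median log2 fold change was 0.09 over the loci of the cluster and -0.01 over all loci in HepG2, and 0.05 and -0.08 in LM3. Elsewhere on chromosome 6, 48 of 265 tested loci rose in HepG2 and 21 of 201 in LM3.

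These counts rest largely on 2 runs of neighbouring loci on 1 strand each, 4 past H2BC11 and 7 past H2BC17, which rose in both lines at every locus. Loci of a run may be pieces of 1 transcript and are not independent observations, so no test was made over them. Outside the runs 7 of 43 tested loci rose in HepG2 (16.3%) and 2 of 27 in LM3 (7.41%). Over all loci the shares were 10.8% and 7.92%, and over the other loci of chromosome 6 they were 18.1% and 10.4%. The LM3 share outside the runs is close to that over all loci. In neither line does the share exceed that over the other loci of chromosome 6. A locus was tested if its mean over the 4 libraries of a line was at least 0.5 FPKM. In HepG2 8 of the loci tested, 6 of them among those that rose, and in LM3 8, 7 of them among those that rose, had a vehicle mean under that limit and passed through the JQ1 libraries alone. In all, 19 loci passed in neither line, 15 of them with a gene symbol, and none of these exceeded 0.61 FPKM in any library. Calls came from limma with Benjamini-Hochberg adjustment over all loci tested at a threshold of 0.05.

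With 2 libraries a group the calls depended on every library. The number of calls in the cluster was 21 in HepG2 with all libraries, 0 without JQ1 replicate 1 or without JQ1 replicate 2, 13 without vehicle replicate 1 and 14 without vehicle replicate 2. In LM3 it was 16 with all libraries and 0 without any 1 of the 4. In the fits with 0 calls no locus of either table was called. Without the filter on low values 10 loci were called in HepG2 and 11 in LM3, and among the loci lost in HepG2 were all 5 that rose within 10 kb of a histone gene outside the runs, with LXLOC_047982 lost in LM3 as well. LXLOC_047951 and LXLOC_047964 in HepG2 and LXLOC_047947 in LM3 were lost too.

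The libraries were alike in most respects. FPKM sums ran between 29369 and 35742. Ribosomal RNA and mitochondrial loci made up 17.1 and 18.1% of the sum in HepG2 with JQ1, against 15.3 and 15.9% with vehicle, and 21.2 and 22.8% in LM3 with JQ1, against 18.9 and 19.6% with vehicle. That share was higher with JQ1 in both lines. With each library rescaled without these loci, 17 loci were called higher and 4 lower in HepG2, with LXLOC_046451 lost, and 13 higher and 3 lower in LM3. The 5 hepatocyte lncRNAs with values, of 8 listed, summed to 2.52 and 2.70 FPKM in HepG2 with JQ1 against 8.70 to 8.77 with vehicle, and to 1.09 to 1.27 FPKM in LM3 with JQ1 against 2.18 to 2.24 with vehicle. Most of that difference is CPS1-IT1, at 1.33 and 1.22 FPKM in HepG2 with JQ1 against 6.84 and 6.79 with vehicle, while LINC01554 was higher with JQ1 in both lines and HULC overlapped between groups in both. H19, an imprinted RNA of fetal liver, ran from 2101 to 2234 FPKM in HepG2 with JQ1 and from 2038 to 2249 with vehicle, and from 310 to 348 FPKM in LM3 with JQ1 and from 310 to 347 with vehicle. It was 1 of 3 fetal liver and hepatoblastoma markers with values. The other 2, MEG3 and LIN28B-AS1, did not exceed 0.38 and 0.2 FPKM in any library. The 3 lymphoid and myeloid markers with values summed to at most 1.14 FPKM in any library, and MIR142HG was at 0 in all LM3 libraries. The 4 fibroblast and endothelial markers summed to 2.45 to 2.64 FPKM in HepG2 with JQ1 against 3.04 to 3.14 with vehicle, and to 8.67 to 11.06 in LM3 with JQ1 against 9.11 to 10.71 with vehicle. The part of any of these in the results was not tested. In bulk RNA of this kind, fewer cells that hold a transcript and less of it per cell cannot be told apart.

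The run past H2BC11 lies on the minus strand, as H2BC11 does, and all 4 of its loci rose in both lines. H2BC11 encodes a histone H2B. The 4 loci span 75758 bases (chr6:27048126-27123883). Nearest to the gene is LXLOC_047960 (chr6:27123493-27123883), 2014 bases past its annotated end. It had 10.73 and 10.21 FPKM in HepG2 with JQ1, against 2.69 and 1.74 with vehicle. In LM3 it had 4.79 and 5.16 FPKM with JQ1, against 0.47 and 0.47 with vehicle. The JQ1 libraries stood apart from the vehicle libraries in both lines. On the log2(FPKM + 0.5) scale the change was 2.04 (SE 0.19, adjusted p = 0.0082) in HepG2 and 2.50 (SE 0.09, adjusted p = 0.0044) in LM3, and the HepG2 call was lost without the filter on low values (adjusted p = 0.069).

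AL021807.1 (ENSG00000272468, chr6:27122657-27123221), the annotated noncoding gene of this run, had 8.02 and 8.66 FPKM in HepG2 with JQ1, against 1.37 and 1.14 with vehicle. In LM3 it had 3.54 and 4.94 FPKM with JQ1, against 0.75 and 0.40 with vehicle. Its means were thus 6.65-fold higher with JQ1 in HepG2 and 7.37-fold in LM3, and the log2 changes were 2.33 (SE 0.10, adjusted p = 0.0026) and 2.14 (SE 0.23, adjusted p = 0.011), the second of which was lost without the filter (adjusted p = 0.091). Its transcript of 565 bases is the one whose end is shown above, with AATAAA at base 545.

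The longest locus, LXLOC_047956 (chr6:27048126-27111305, 63180 bases), begins 14592 bases past H2BC11 and contains LXLOC_047958 (chr6:27093689-27099956) on the same strand, so these 2 may share reads. Both also cover the tRNA gene TRS-GCT1-1. LXLOC_047956 had 5.38 and 5.95 FPKM in HepG2 with JQ1 against 0.70 and 0.72 with vehicle, and 2.67 and 2.05 in LM3 with JQ1 against 0.17 and 0.29 with vehicle. Its log2 changes were 2.35 (SE 0.09, adjusted p = 0.0026) in HepG2 and 1.97 (SE 0.16, adjusted p = 0.0086, and 0.058 without the filter) in LM3. LXLOC_047958 had 3.35 and 3.43 FPKM in HepG2 with JQ1 against 0.53 and 0.43 with vehicle, and 1.46 and 1.34 in LM3 with JQ1 against 0.08 and 0.14 with vehicle, and changes of 1.99 (SE 0.10) and 1.64 (SE 0.13). In every library the 2 loci close to the gene had higher FPKM than these 2 farther ones. Summed over the run, FPKM came to 27.48 and 28.25 in HepG2 with JQ1 against 5.29 and 4.03 with vehicle, and to 12.46 and 13.49 in LM3 with JQ1 against 1.47 and 1.30 with vehicle.

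**Figure D1:**
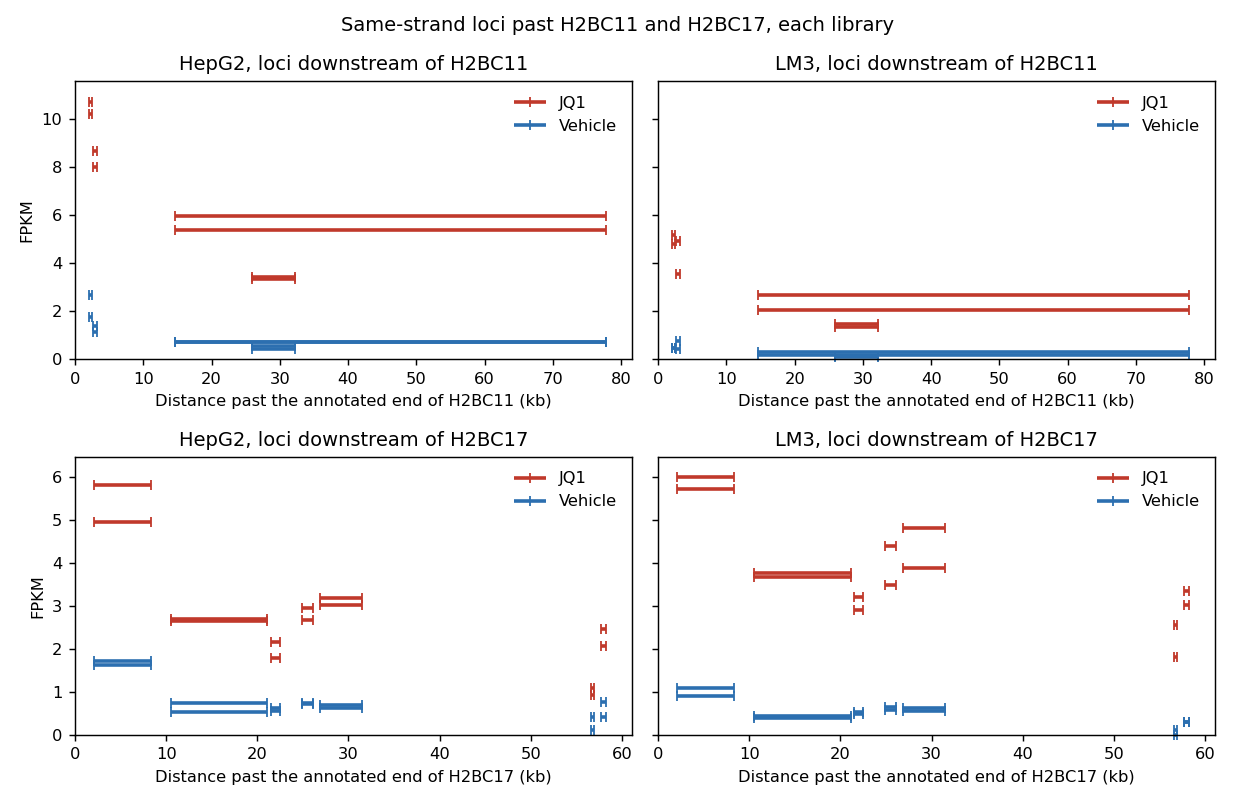
FPKM of each same-strand locus (vertical axis) against its distance in kb past the annotated end of H2BC11 (top) or H2BC17 (bottom), for HepG2 (left) and LM3 (right). Each bar spans 1 locus in 1 library, JQ1 in red and vehicle in blue, and at every locus both JQ1 bars lie above both vehicle bars.

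Next to this run, loci with another place relative to H2BC11 were not called. LXLOC_047962 (chr6:27133034-27134028, minus strand) lies upstream of H2BC11 on the same strand and antisense over the H2A gene H2AC11. It had 0.96 and 0.96 FPKM in HepG2 with JQ1 against 0.98 and 0.99 with vehicle, and 0.86 and 0.74 in LM3 with JQ1 against 0.49 and 0.66 with vehicle. Its log2 changes were -0.02 (SE 0.09, adjusted p = 0.86) and 0.28 (SE 0.14, adjusted p = 0.21). LINC00240 (chr6:26956932-27059749, plus strand) overlaps LXLOC_047956 on the opposite strand and had 2.10 and 1.31 FPKM in HepG2 with JQ1 against 1.52 and 1.23 with vehicle. Its change was 0.21 (SE 0.21, adjusted p = 0.49), and in LM3, where it did not pass the filter, it had 0.67 and 0.47 FPKM with JQ1 against 0.28 and 0.35 with vehicle, without overlap. LARRPM (chr6:27018935-27020280, minus strand), 105617 bases past H2BC11 on its strand, had a change of -0.56 (SE 0.18, adjusted p = 0.094) in HepG2 and -0.15 (SE 0.19, adjusted p = 0.60) in LM3.

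The run past H2BC17 lies on the plus strand, as H2BC17 does, a second histone H2B gene. Its 7 loci span 56183 bases (chr6:27895950-27952132), and all rose in both lines. Nearest to the gene is LXLOC_046445 (chr6:27895950-27902121), 2107 bases past its end. It had 4.94 and 5.80 FPKM in HepG2 with JQ1, against 1.71 and 1.63 with vehicle. In LM3 it had 5.99 and 5.73 FPKM with JQ1, against 1.09 and 0.90 with vehicle. The groups did not overlap, and the changes were 1.43 (SE 0.10, adjusted p = 0.0061) in HepG2 and 2.09 (SE 0.10, adjusted p = 0.0053) in LM3.

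LXLOC_046446 (chr6:27904346-27914956) had 2.70 and 2.65 FPKM in HepG2 with JQ1 against 0.74 and 0.53 with vehicle, and 3.77 and 3.66 in LM3 with JQ1 against 0.43 and 0.40 with vehicle. LXLOC_046449 (chr6:27920674-27925373) had 3.02 and 3.19 FPKM in HepG2 with JQ1 against 0.63 and 0.70 with vehicle, and 4.80 and 3.88 in LM3 with JQ1 against 0.55 and 0.62 with vehicle. Their means were 4.21-fold and 4.67-fold higher with JQ1 in HepG2, and 8.95-fold and 7.42-fold higher in LM3. Between these 2 lie LXLOC_046447 (chr6:27915313-27916327), with changes of 1.17 (SE 0.12) in HepG2 and 1.82 (SE 0.10) in LM3, and LXLOC_046448 (chr6:27918772-27919969), with 1.43 (SE 0.09) and 2.0 (SE 0.13).

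The far end of the run, over 56 kb past H2BC17, holds 2 short loci. LXLOC_046452 (chr6:27951555-27952132) had 2.07 and 2.46 FPKM in HepG2 with JQ1 against 0.76 and 0.42 with vehicle, and 3.03 and 3.34 in LM3 with JQ1 against 0.29 and 0.29 with vehicle. LXLOC_046451 (chr6:27950504-27950818) had 1.10 and 0.93 FPKM in HepG2 with JQ1 against 0.10 and 0.41 with vehicle, and 2.56 and 1.80 in LM3 with JQ1 against 0.11 and 0 with vehicle. LXLOC_046451 had the weakest call of the run in HepG2, with a change of 1.03 (SE 0.23, adjusted p = 0.039), which was lost with a pseudocount of 0.1, after rescaling without ribosomal and mitochondrial loci, and without the filter on low values (adjusted p = 0.20). Without the filter the HepG2 calls of LXLOC_046447 (adjusted p = 0.056) and LXLOC_046452 (adjusted p = 0.11) and the LM3 call of LXLOC_046451 (adjusted p = 0.065) were lost too. Summed over the 7 loci, FPKM came to 18.29 and 20.12 in HepG2 with JQ1 against 5.24 and 5.03 with vehicle, and to 27.75 and 24.81 in LM3 with JQ1 against 3.57 and 3.34 with vehicle.

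The responses of the lines were compared locus by locus, and no test set 1 run against the other. At all 7 loci of the H2BC17 run the change was larger in LM3, by 0.52 to 1.23 on the log2 scale, with unadjusted p between 0.0022 and 0.014. After adjustment over all 5035 loci in the limma test of the difference none passed, with adjusted p between 0.18 and 0.28. In the H2BC11 run the difference of LM3 minus HepG2 was negative at 3 of the 4 loci and positive at LXLOC_047960 (0.46, SE 0.23, adjusted p = 0.49). That sign depends on the pseudocount: with 0.1 in place of 0.5 the difference was positive at all 4 loci, and the ratio of means was larger in LM3 at each of them, while the 7 H2BC17 loci stayed positive with 0.1, 0.5 and 1. Across the cluster 0 of 38 loci tested in both lines were called for the difference, where 0.218% of all loci were, and 9 of the 38, 7 of them in the H2BC17 run, had an unadjusted p under 0.05, as did 604 of all 5035 loci. Levels, set side by side although the 2 tables may be scaled separately, showed with JQ1 higher means in the LM3 table at all 7 H2BC17 loci, while 64 of the 73 loci had a higher mean over all 4 libraries in the HepG2 table.

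**Figure D2:**
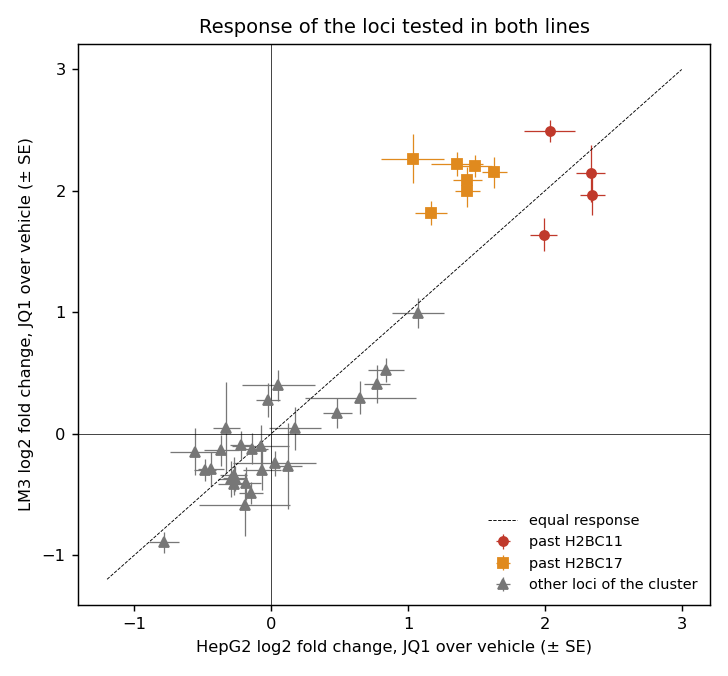
Log2 fold change with JQ1 in LM3 (vertical) against HepG2 (horizontal), on the log2(FPKM + 0.5) scale, for the 38 loci tested in both lines, with standard errors. Loci past H2BC17 lie above the dashed line of equal response, loci past H2BC11 lie around it, and the other loci lie between -0.90 and 1.07 on both axes, from HCG11 at the low end to LXLOC_047934 at the high end.

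Beside the counts below, 10.8% of all loci tested rose and 14.2% fell in HepG2, and 7.92% rose and 15.4% fell in LM3. By distance to the nearest histone gene, 9 loci lay between 1 and 10 kb. Of these, 8 were tested in HepG2 and all 8 rose, with a median log2 change of 1.12, and 5 were tested in LM3 and all 5 rose, with a median of 2.09. However, 4 of the 8 and 2 of the 5 had a vehicle mean under 0.5 FPKM and passed the filter only through JQ1, so these counts support nothing by themselves. Among the 58 loci farther than 10 kb, 10 of 41 tested rose and 3 fell in HepG2, and 8 of 29 rose and 3 fell in LM3, and all 8 of those in LM3 belong to the runs. None of the 5 loci that overlap a histone gene, all on the opposite strand, was called in either line by limma. Nor was the 1 locus closer than 1 kb. At an unadjusted p under 0.05 in limma, 1 of the 4 overlapping loci tested was found in HepG2 and 1 of 4 in LM3. Both shares are lower than those over all loci tested at that threshold. By strand, 15 of 30 tested loci on the strand of the nearest histone gene rose in HepG2 and 3 of 24 on the opposite strand, and 12 of 23 and 1 of 15 in LM3. Most of that contrast is the 2 runs: without their loci 4 of 19 on the same strand and 3 of 24 on the opposite strand rose in HepG2, and 1 of 12 and 1 of 15 in LM3. Without the runs, the opposite-strand share in HepG2 and both shares in LM3 are near those over all loci. Of the plus-strand loci 9 of 25 and of the minus-strand loci 9 of 29 rose in HepG2.

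A second grouping, chosen after the values were seen, measured the gap from a locus back to the nearest histone gene on its own strand. The 5 loci that overlap a histone gene were left out of its counts. They too lie past a histone gene on their own strand, with gaps of 12390 to 30879 bases. Of these 5, 4 were tested and 0 rose in either line. Within 10 kb past such a gene lay 7 loci, of which 7 of 7 tested rose in HepG2 and 5 of 5 in LM3. From 10 to 100 kb lay 12 loci, of which 9 of 12 rose in HepG2 and 8 of 10 in LM3. Of the 49 farther away or with no such gene, 2 of 31 tested rose and 3 fell in HepG2. In LM3 0 of 19 tested rose and 3 fell. At an unadjusted p under 0.05 in limma, 4 rose in HepG2 and 0 in LM3. The share of all loci that rose at that unadjusted threshold was not counted. The grouping is a description, and 11 of the loci it counts are those of the 2 runs. Without the runs, and with the overlapping loci again left out, 5 of 8 tested loci up to 100 kb past such a gene rose in HepG2. In LM3 2 of 4 did. Of those that rose, LXLOC_047934 passed the filter only through JQ1 in both lines. LXLOC_046381, LXLOC_047984 and LXLOC_047923 did so in HepG2. These counts thus support nothing by themselves. With the runs, 6 of the tested loci in HepG2 and 7 in LM3 passed the filter only through JQ1.

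**Figure D3:**
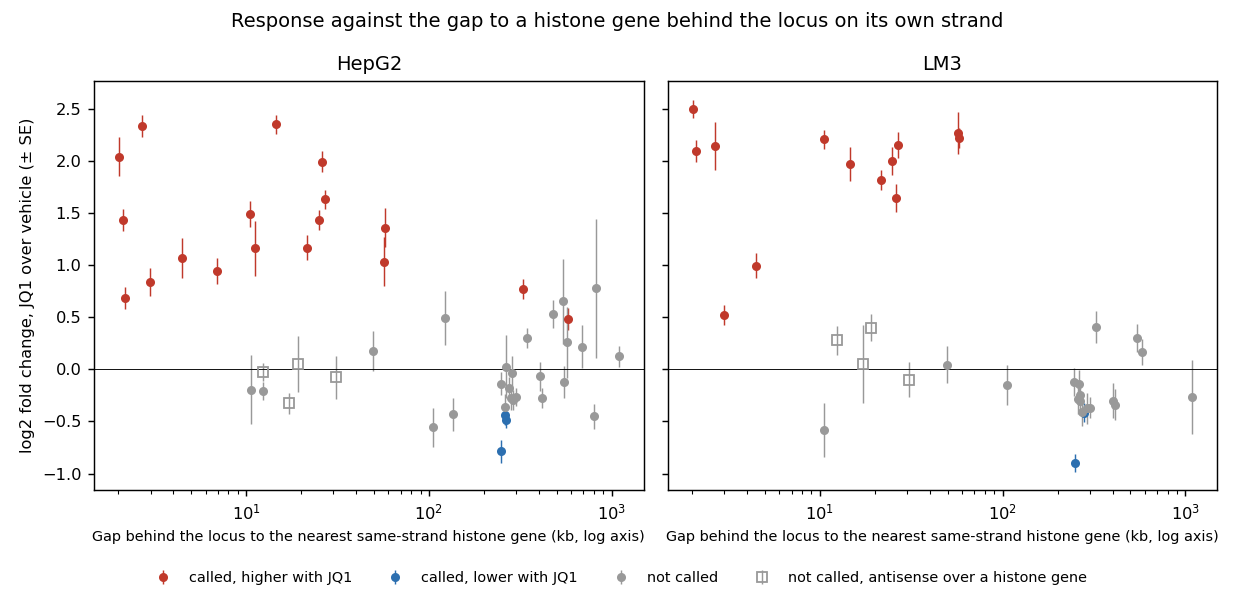
Log2 fold change with JQ1 (vertical, with standard errors) against the gap in kb, on a log axis, from the locus back to the nearest histone gene on its own strand, for tested loci that have such a gene behind them. Red points were called higher, blue points lower, grey points not called, and open squares are loci antisense over a histone gene. Red points lie mostly at gaps under 100 kb.

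Outside the runs, 5 loci within 10 kb of a histone gene rose in HepG2. The highest of them was LXLOC_047982 (chr6:27825860-27828240, minus strand), 2976 bases past H4C12 on its strand and 1380 bases past H4C11 on the other, both genes of histone H4. It had 9.20 and 10.18 FPKM in HepG2 with JQ1, against 4.61 and 5.84 with vehicle, and 5.37 and 5.94 in LM3 with JQ1, against 3.62 and 3.95 with vehicle. The change was smaller than in the runs, 0.84 (SE 0.13, adjusted p = 0.019) in HepG2 and 0.52 (SE 0.10, adjusted p = 0.030) in LM3. Its neighbour LXLOC_047984 (chr6:27833037-27835779, minus strand), 2168 bases past the histone H2A gene H2AC15, had 0.97 and 0.89 FPKM in HepG2 with JQ1 against 0.43 and 0.35 with vehicle (0.69, SE 0.11, adjusted p = 0.018). In LM3 LXLOC_047984 had 0.53 and 0.41 FPKM with JQ1 against 0.25 and 0.28 with vehicle, too low to be tested.

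LXLOC_047934 (chr6:26264405-26264948, minus strand) lies 4457 bases past H3C8, a histone H3 gene whose stem-loop is shown above. It had 1.32 and 1.16 FPKM in HepG2 with JQ1 against 0.48 and 0.20 with vehicle, and 1.01 and 1.02 in LM3 with JQ1 against 0.26 and 0.26 with vehicle. It was the only locus besides LXLOC_047982 called higher in both lines outside the runs, with changes of 1.07 (SE 0.19, adjusted p = 0.024) and 1.00 (SE 0.12, adjusted p = 0.012). LXLOC_046381 (chr6:26146025-26148788, plus strand), 6909 bases past the H2A gene H2AC6, had 0.84 and 0.96 FPKM in HepG2 with JQ1 against 0.19 and 0.27 with vehicle (0.94, SE 0.13, adjusted p = 0.013). In LM3 LXLOC_046381 was not tested and had 0.45 and 0.49 FPKM with JQ1 against 0.08 and 0.18 with vehicle, again without overlap. LXLOC_047923 (chr6:26095532-26096236, minus strand), 7640 bases from the H4 gene H4C3 on the other strand and 11183 bases past the testis-type linker histone gene H1-6 on its own, had 0.57 and 1.24 FPKM in HepG2 with JQ1 against 0.11 and 0.11 with vehicle (1.16, SE 0.26, adjusted p = 0.041). LXLOC_047934, LXLOC_047984 and LXLOC_047923 fall outside the rule for named loci and were chosen after their values were seen.

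**Figure D4:**
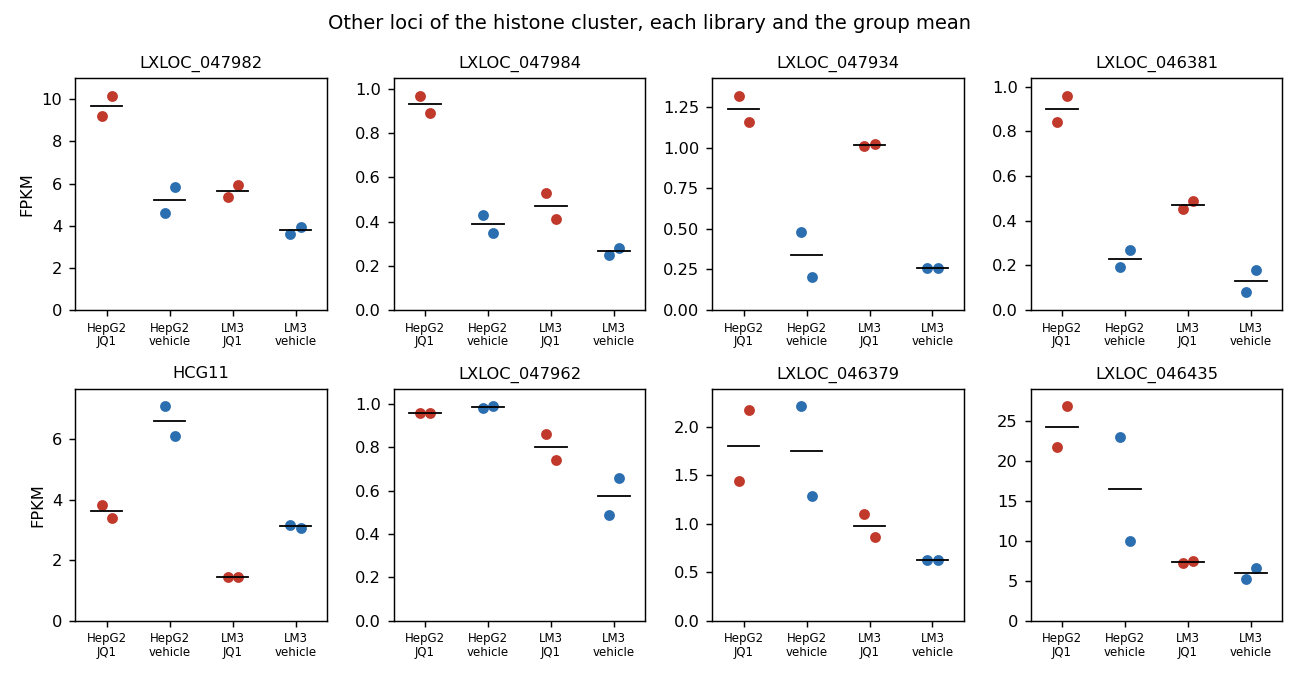
FPKM of 8 further loci of the cluster (vertical axes start at 0), with 1 point per library, JQ1 in red left of vehicle in blue for each line, and a bar at each group mean. The top row shows loci a few kb past a histone gene, with the JQ1 points higher, and the bottom row shows HCG11, with the JQ1 points lower, 2 loci antisense over histone genes, and the tRNA-gene locus LXLOC_046435.

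Loci lying over a histone gene are all antisense to it, and 4 of the 5 were tested. LXLOC_046379 (chr6:26123402-26123907, plus strand), over the H2B gene H2BC4, had 1.44 and 2.17 FPKM in HepG2 with JQ1 against 2.21 and 1.28 with vehicle, so the groups overlapped, and 1.10 and 0.86 in LM3 with JQ1 against 0.62 and 0.62 with vehicle (0.40, SE 0.13, adjusted p = 0.095). LXLOC_047926 (chr6:26156366-26157886, minus strand), over the linker histone gene H1-4, had 1.27 and 1.11 FPKM in HepG2 with JQ1 against 1.66 and 0.97 with vehicle, and 0.48 and 0.71 in LM3 with JQ1 against 0.58 and 0.76 with vehicle. LXLOC_046396 (chr6:26270946-26271389, plus strand), over H3C8, had 0.64 and 0.77 FPKM in HepG2 with JQ1 against 0.99 and 1.03 with vehicle (-0.33, SE 0.10, adjusted p = 0.082), and overlapping groups in LM3. None of these reached the threshold. AL353759.1 (chr6:26160765-26172802, minus strand), over H2BC5, did not exceed 0.31 FPKM in any library. LXLOC_046398 (chr6:26285680-26287566, plus strand) starts 42 bases before the H4 gene H4C8 on the other strand and had 0.75 and 0.73 FPKM in HepG2 with JQ1 against 0.95 and 0.91 with vehicle (-0.21, SE 0.09, adjusted p = 0.16). Whether reads were assigned by strand is not given in the sources used here, so reads of these loci and of the histone genes opposite them cannot be told apart.

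HCG11 (ENSG00000228223, chr6:26521709-26527404, plus strand), a long noncoding RNA gene 236071 bases from the nearest histone gene, was the only locus of the cluster called lower in both lines. It had 3.82 and 3.39 FPKM in HepG2 with JQ1, against 7.08 and 6.09 with vehicle. In LM3 it had 1.45 and 1.43 FPKM with JQ1, against 3.17 and 3.05 with vehicle. The log2 changes were -0.79 (SE 0.11, adjusted p = 0.014) and -0.90 (SE 0.08, adjusted p = 0.0091), and the HepG2 call was lost without the filter on low values. The difference between the lines was -0.11 (SE 0.14, adjusted p = 0.79).

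LINC02980 (ENSG00000272462, chr6:25992641-26001775, plus strand), whose HepG2 values open the window above, fell in HepG2 by 0.49 on the log2 scale (SE 0.08, adjusted p = 0.020). In LM3 it had 1.21 and 1.29 FPKM with JQ1 against 1.68 and 1.63 with vehicle (-0.30, SE 0.09, adjusted p = 0.079), lower without overlap but not called. ZSCAN16-AS1 (chr6:28015122-28137293, minus strand), antisense to a zinc finger gene, had 0.92 and 0.95 FPKM in LM3 with JQ1 against 1.52 and 1.5 with vehicle (-0.49, SE 0.09, adjusted p = 0.028). In HepG2 it had 4.01 and 3.66 FPKM with JQ1 against 4.18 and 4.41 with vehicle (-0.15, SE 0.09, adjusted p = 0.28), and the difference between the lines was not called (-0.34, SE 0.11, adjusted p = 0.32). LXLOC_047993 and LXLOC_047996 overlap ZSCAN16-AS1 on its strand and may share its reads.

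A block of 7 minus-strand loci from LXLOC_047945 to LXLOC_047952 (chr6:26817229-26879636), between 246261 and 299821 bases past H2BC11, had values between 0.45 and 3.08 FPKM. JQ1 libraries lay below vehicle libraries at 6 of the 7 loci in each line, and every log2 change was negative in both lines, with medians of -0.28 in HepG2 and -0.37 in LM3. The share of all loci with JQ1 below vehicle in this way was not counted. The threshold was passed in 1 locus per line, LXLOC_047951 in HepG2 (-0.44, SE 0.09, adjusted p = 0.034) and LXLOC_047947 in LM3 (-0.41, SE 0.09, adjusted p = 0.037). Over all loci tested 14.2% were called lower in HepG2 and 15.4% in LM3, so 1 of 7 is near the share over all loci. The last of the 7 lies over the pseudogene GUSBP2 on its strand. The block and these 2 names were chosen after the values were seen.

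Short loci over tRNA genes formed another group of 11, between 235 and 752 bases long, with tRNA genes placed by RefSeq. All 11 were tested in HepG2, where 1 rose, a share near the 10.8% over all loci, and 5 in LM3, where 0 did in limma. At an unadjusted p under 0.05, 3 of the 11 were found in HepG2 and 0 of the 5 in LM3. Each of these shares is lower than that over all loci tested in the line at that threshold. The highest level of the cluster was at LXLOC_046435 (chr6:27688188-27688521, plus strand), over an isoleucine tRNA gene, with 21.65 and 26.78 FPKM in HepG2 with JQ1 against 22.93 and 9.96 with vehicle. In LM3 it had 7.15 and 7.44 FPKM with JQ1 against 5.18 and 6.59 with vehicle, and it was called in neither line (0.65, SE 0.41, and 0.30, SE 0.13). LXLOC_047964 (chr6:27230339-27230641, minus strand), over a leucine tRNA gene, was the 1 that rose, with 8.39 and 9.06 FPKM in HepG2 with JQ1 against 6.61 and 5.62 with vehicle (0.48, SE 0.11, adjusted p = 0.037). LXLOC_046423, over a histidine tRNA gene, had 4.21 and 6.81 FPKM in HepG2 with JQ1 against 8.15 and 4.72 with vehicle.

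The libraries of a HepG2 group differed at these short loci mostly in 1 direction. In HepG2, JQ1 replicate 2 was above JQ1 replicate 1 at 10 of the 11, and vehicle replicate 1 was above vehicle replicate 2 at 10 of the 11. Over the other tested rows shorter than 1 kb the median log2 ratio of the same libraries was 0.06 for JQ1 and 0.06 for vehicle. The share of those rows that differed in the same direction was not counted. Why the libraries of a group differ at these loci was not tested.

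The remaining loci with a symbol that passed the filter were not called. AL513548.1 had changes of -0.28 (SE 0.10) in HepG2 and -0.34 (SE 0.15) in LM3, AL513548.4 had -0.07 (SE 0.14) and -0.30 (SE 0.17), and HCG15 had 0.12 (SE 0.10) and -0.26 (SE 0.36). LINC01012 and AL121944.1 were tested in HepG2 alone, with -0.12 (SE 0.16) and -0.29 (SE 0.26). LXLOC_046431 (chr6:27472938-27480296, plus strand), opposite the zinc finger gene ZNF184 and far from any histone gene on its strand, rose in HepG2, with 1.81 and 2.01 FPKM with JQ1 against 0.91 and 0.91 with vehicle (0.77, SE 0.09, adjusted p = 0.011). In LM3 its change was 0.41 (SE 0.15, adjusted p = 0.12). LXLOC_046431 overlaps ENSG00000286652 on the same strand, so they may share reads, and it also lies over tRNA genes.

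The smaller histone cluster on chromosome 1 has 3 loci with values within 10 kb of a histone gene, given for comparison without a test. AC243772.2 (chr1:149785659-149793020, minus strand) had 1.18 and 1.29 FPKM in HepG2 with JQ1 against 0.06 and 0.05 with vehicle, and 2.26 and 2.03 in LM3 with JQ1 against 0.03 and 0.04 with vehicle. Its changes were 1.64 (SE 0.12, adjusted p = 0.0061) and 2.30 (SE 0.12, adjusted p = 0.0053), and its means were 22.5-fold and 61.3-fold higher with JQ1, on vehicle means of 0.055 and 0.035 FPKM. AC239868.1 also rose in both lines (0.77, SE 0.13, adjusted p = 0.022, and 0.53, SE 0.10, adjusted p = 0.030), and LXLOC_001571 was not called.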

How the data were processed

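Total RNA depleted of ribosomal RNA was sequenced from both ends, per the labels' protocols. The authors deposited FPKM in 1 table per cell line, per the file headers. The submitters' processing notes name Bowtie 0.12.2, hg19 and mm8 with no role. The coordinates match GRCh38: of 8453 Ensembl IDs found in GENCODE 29, 100% lay on the same chromosome and 83.9% had the same start. Neither the counting tool, nor its strand setting, nor how LXLOC loci were defined is stated in any label or header. FPKM leave the depth of a library unknown, and the spread between libraries alone sets the precision. The labels do not say that replicates came from separate cultures, so p-values may measure technical spread alone.

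JQ1 was compared with vehicle within each table in limma 3.58.1 (R 4.3.3, trend and robust, two-sided) on log2(FPKM + 0.5), which understates changes of low loci, keeping loci whose 4 libraries in the line averaged 0.5 FPKM or more. P-values were adjusted by Benjamini-Hochberg over all loci tested, at a threshold of 0.05. The difference between lines was an interaction contrast over all 8 libraries. On simulated data with 200 loci changed by 1 or 2 log2 units, all were recovered, with 5 false calls in HepG2 and 2 in LM3; smaller changes were not simulated. Distances run between nearest ends in GENCODE 29. Named loci were the called ones (up to 12 per line by p), the 6 highest per line, those with a symbol and those within 1 kb of a histone gene that passed the filter. Members and lists were chosen with earlier results of these data known. Tables and figures were made in Python 3.11.15 with matplotlib 3.10.9, NumPy 2.4.6 and pandas 2.3.3.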

Additional observations from a re-analysis of the deposited data

How the results depend on the processing

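The 11 loci of the runs past H2BC11 and H2BC17 kept a positive change in both lines under each alternative in which they were tested (10 of them with a filter of 1 FPKM and 9 without overlapping rows), with a range of 0.73 to 2.43 (log2) in HepG2 and 1.57 to 2.54 in LM3 when 1 library at a time was left out. The number of loci called in HepG2 was 21, and 10 without a filter on low values, where 15469 loci were tested; it ranged from 0 to 14 when 1 library was left out. In LM3 it was 16, between 11 and 16 under the other alternatives, and 0 without any 1 library. The number called for the difference between lines was 0 throughout. Without the filter the HepG2 calls of HCG11, LXLOC_047960, LXLOC_047982 and 9 others were lost, and in LM3 those of LXLOC_047956, AL021807.1, LXLOC_047982, LXLOC_046451 and LXLOC_047947. Centring on the median and quantile normalization each lost LXLOC_047947 in LM3.

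Directions reversed only at loci that were not called. LXLOC_047962 in HepG2 became 0.014 when libraries were centred and 0.0035 after quantile normalization, and LXLOC_047926 in LM3 became 0.018 after quantile normalization; the cause was not tested. When 1 library was left out, the HepG2 change ran from -0.047 to 0.48 at LINC00240, -0.65 to 0.065 at AL121944.1, -0.31 to 0.070 at LINC01012, -0.23 to 0.095 at AL513548.4, -0.25 to 0.35 at LXLOC_046379, -0.56 to 0.17 at LXLOC_046423 and -0.36 to 0.20 at LXLOC_047926. In LM3 it ran from -0.75 to 0.22 at HCG15, -0.38 to 0.083 at LARRPM, -0.36 to 0.46 at LXLOC_046396 and -0.25 to 0.053 at LXLOC_047926.

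Fitted with the replicate number as a block, 21 loci were called in HepG2, 14 in LM3 and 0 for the difference. The calls of LXLOC_047951 in HepG2 and of LXLOC_047947 and ZSCAN16-AS1 in LM3 were not made under the block, and no other call was lost. Same-numbered libraries shared only a number (correlation of their deviations -0.03 in HepG2 and 0.13 in LM3). With 2 libraries a group, no fragment counts and no strand setting given, changes at low or overlapping loci are the least certain.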
